A study of Mus musculus with 8 samples.

Results

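The genes Il2ra, Il2rb, Il2rg, Il4ra, Il7r, Il9r, Il15ra and Il21r encode the chains of the receptors for IL-2, IL-4, IL-7, IL-9, IL-15 and IL-21, which share the common gamma chain. They were taken by gene symbol, and all 8 were among the 47937 genes of the counts table. Of these 8 chains, 7 passed a filter on low counts and were tested, and Il9r did not pass it. RNA was sequenced from sorted mature CD8 single-positive (CD8SP) thymocytes with surface TCRβ and high MHC class I, with 1 library per biological replicate and 4 replicates of each genotype. Ndrg3ctrl mice were Ndrg3 +/fl;Lck-cre+ and Ndrg3TKO mice were Ndrg3 fl/fl;Lck-cre+, and the labelled age was 6 to 7 weeks for both. Both genotypes thus carried the Cre transgene, which is driven by the proximal Lck promoter and acts in early thymocytes, and the controls were heterozygous for the floxed allele rather than wild type. The floxed allele came from a single embryonic stem cell clone, the Cre line was kept on the C57BL6/J background, and the labels give no sex.

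The common gamma chain, encoded by Il2rg on the X chromosome, is a subunit of 6 cytokine receptors and recruits the kinase Jak3. In each receptor a partner chain recruits Jak1, and the partner chains together set which cytokine is bound. The receptors then act through STAT proteins, mainly Stat5 for IL-2, IL-7, IL-9 and IL-15, Stat6 for IL-4 and Stat3 for IL-21. In the thymus, IL-7 and IL-15 are known for supporting the differentiation and survival of CD8 lineage cells.

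Total counts per library ranged from 21126698 to 32668081. The targeted gene, Ndrg3, was lower in Ndrg3TKO (51.8 ± 3.01 CPM, SD, n = 4) than in Ndrg3ctrl (80.7 ± 1.00 CPM, n = 4), with a log2 fold change of -0.64 (edgeR adjusted p = 1.04e-05) and no overlap between the groups. CPM are counts scaled to the size of the library, with TMM factors. The 8 CD8 T cell markers summed to 5296 to 6042 CPM over all libraries, against 1.38 to 3.39 CPM for 3 markers of CD4 T cells and 0.0994 to 0.704 CPM for 4 markers of B cells. The sums of the other marker lists lay between these, at 534 to 742 CPM for regulatory T cells, 282 to 357 CPM for memory CD8 T cells, 70.5 to 83.0 CPM for immature thymocytes, 57.2 to 84.8 CPM for NK and NKT cells, 12.7 to 22.6 CPM for gamma delta T cells and 6.36 to 7.78 CPM for myeloid and epithelial cells. Most of the regulatory T cell sum was Ikzf2 (483 to 694 CPM), with Foxp3 at 2.60 to 6.55 CPM. Most of the memory sum was Nkg7 (220 to 296 CPM), with Cxcr3 at 0.501 to 2.21 CPM and Ccl5 at 0.157 to 1.38 CPM. Y-linked genes were counted in 3 of the libraries (Ndrg3ctrl replicate 2 and Ndrg3TKO replicates 2 and 3) at over 1 CPM and were at or near 0 in the other 5. In bulk RNA, fewer cells that express a gene and less RNA per cell cannot be told apart.

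The levels of the chains, given per exon length (TPM), formed 3 tiers. Il2rg, the common chain, was the highest at 501 ± 25.8 TPM (SD, n = 8), above 99.5% of all genes in the table. Il21r, the IL-21 binding chain, followed at 312 ± 19.6 TPM. Il2rb, the chain through which IL-2 and IL-15 signal together with the common chain, stood at 254 ± 13.9 TPM. Each of these 3 chains was above the next in 8 of 8 libraries, with ranges that did not overlap. Il4ra, the IL-4 binding chain, and Il7r, the IL-7 binding chain, came next at 136 ± 11.3 and 134 ± 9.90 TPM. These neighbours did not differ beyond their spread, since Il4ra was the higher in 4 of 8 libraries.

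A lower tier held the private alpha chains of the IL-15 and IL-2 receptors. Il15ra reached 4.19 ± 1.17 TPM and Il2ra 3.39 ± 1.25 TPM, and their order changed between libraries, with Il15ra above Il2ra in 5 of 8. The step from Il7r to Il15ra was 32.1-fold. Il2ra amounted to 1.02% ± 0.324 of the Il2rb level in Ndrg3ctrl and to 1.64% ± 0.353 in Ndrg3TKO (n = 4 each, 2-sided exact permutation test p = 0.0571). Il9r, the IL-9 binding chain, was the lowest at 0.0678 ± 0.0396 TPM, a level that rests on 24 counts in all.

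**Figure D1:**
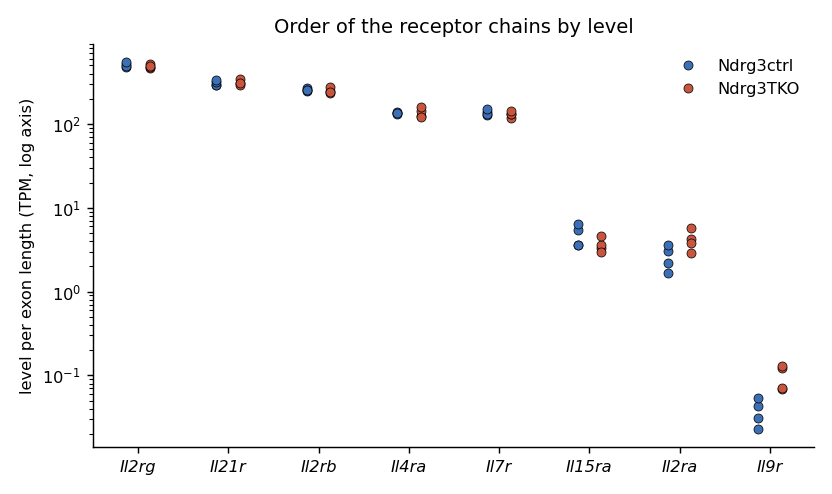
Levels of the 8 receptor chains per exon length in TPM on a log axis, with 1 point per library and the genotypes in 2 colours, ordered by the mean over 8 libraries. Il2rg, Il21r, Il2rb, Il4ra and Il7r lie above 100 TPM in every library, Il15ra and Il2ra between 1.65 and 6.37 TPM, and Il9r below 0.130 TPM, where a point stands for 1 to 6 counts.

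The level of the common chain was also set against that of its partners. Il2rg equalled 60.3% ± 2.26 of the summed TPM of the other 7 chains in Ndrg3ctrl and 58.5% ± 1.28 in Ndrg3TKO (n = 4 each, 2-sided exact permutation test p = 0.286). A p that misses the threshold does not show that values did not differ, here or in the comparisons that follow.

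None of the receptor chains passed the test between Ndrg3TKO and Ndrg3ctrl in the fit by genotype alone. A fit with the shared replicate numbers as a block, which called Il2ra, is given with the processing settings below. With edgeR (quasi-likelihood, p adjusted by Benjamini-Hochberg over 14633 tested genes), 0 of 7 chains had an adjusted p under 0.05, where 1.15% of all tested genes did. DESeq2 also called 0 of 7, with 1.93% of its genes called. At an unadjusted p under 0.05 there were 2 of 7 chains, Il2ra and Il15ra, by either tool, beside 10.9% of all tested genes in edgeR. The groups of libraries overlapped for each of the 7 chains, while they did not overlap for 7.04% of all tested genes. The log2 fold change was below 0 for 6 of 7 chains, beside 51.2% of all tested genes, and the median over the 7 was -0.07 beside a median of -0.0033 over all tested genes. In 2-sided exact permutation tests on single chains, p ranged from 0.114 to 0.914, and the smallest value that 4 against 4 libraries allow is 0.0286.

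**Figure D2:**
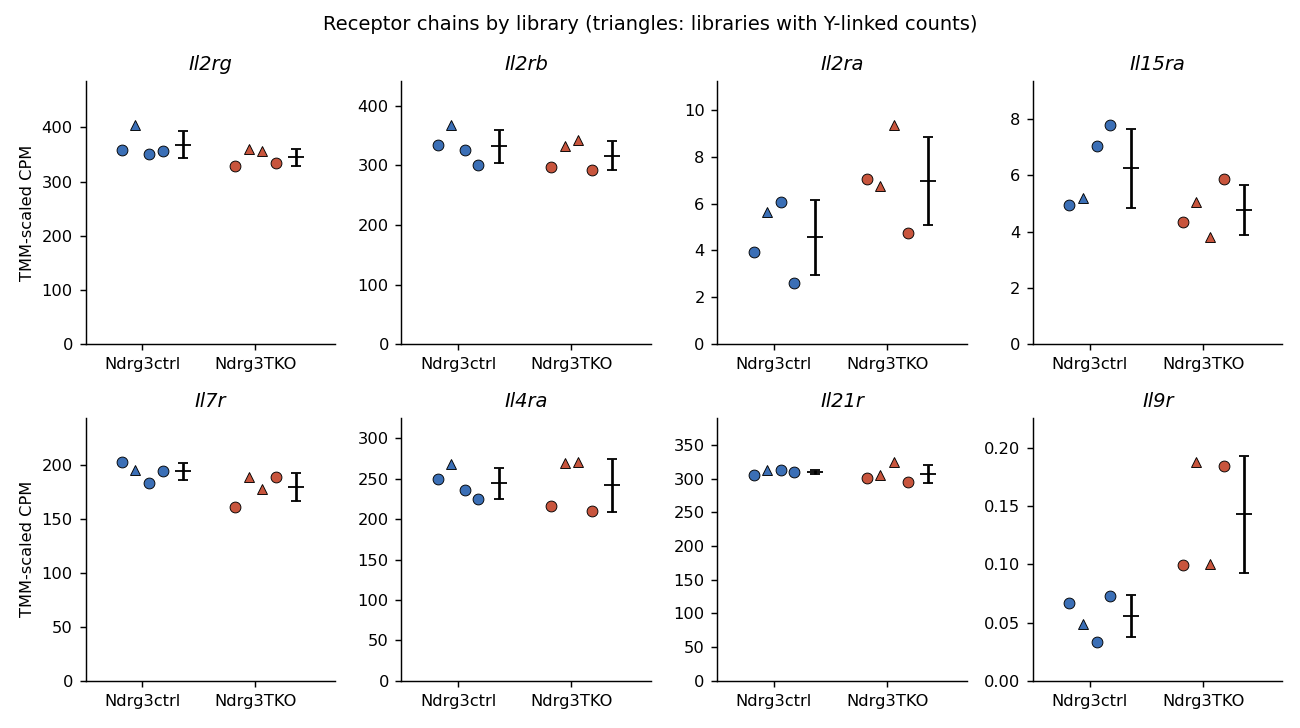
TMM-scaled CPM of each receptor chain in each library, with 1 panel per gene, the libraries of each genotype from replicate 1 to 4, and the mean ± SD beside them. The groups overlap in the panels of the 7 tested chains. Triangles mark the 3 libraries with Y-linked counts, which are the 3 highest for Il4ra.

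For the common chain, Il2rg (chrX:101264378-101268255, minus strand), Ndrg3ctrl libraries 1 to 4 held 359, 404, 351 and 357 CPM and Ndrg3TKO libraries 1 to 4 held 329, 360, 357 and 334 CPM. Ndrg3ctrl replicate 2 stood above all others, and the other 3 controls lay within the range of the Ndrg3TKO values. The log2 fold change was -0.09 (95% interval -0.22 to 0.03, edgeR adjusted p = 0.612). Gm20489, which the annotation places over Il2rg on the same strand, held 0 to 2 counts per library, and reads shared between the 2 genes cannot be assigned.

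Il2rb (chr15:78479256-78495271, minus strand) encodes the beta chain shared by the IL-2 and IL-15 receptors. Its values were 334, 368, 326 and 300 CPM in Ndrg3ctrl and 297, 332, 343 and 293 CPM in Ndrg3TKO. High and low libraries were found in both groups, and the log2 fold change was -0.07 (95% interval -0.22 to 0.08, edgeR adjusted p = 0.774), or -0.12 to -0.02 with 1 library left out at a time. Eomes, a T-box transcription factor known to drive Il2rb in CD8 T cells, was lower in the same Ndrg3TKO libraries, with a log2 fold change of -1.26. Of 7 markers of NK and NKT cells, which also express Il2rb, 4 were tested. Of these edgeR called 1, beside 1.15% of all tested genes. This was Klrb1c, at 0.305 CPM in Ndrg3ctrl and 1.77 CPM in Ndrg3TKO (edgeR adjusted p = 0.00149). DESeq2 called 2, Klrb1c and Cd160, both higher, beside 1.93% of its genes. Zbtb16, a factor that NKT cells need and 1 of the 3 markers not tested, was named after its values were seen. It was lower in Ndrg3TKO libraries without overlap, at 0.146 to 0.335 CPM in Ndrg3ctrl and 0.0314 to 0.0921 CPM in Ndrg3TKO. The groups did not overlap for 7.04% of all tested genes either. The Ndrg3TKO values of Zbtb16 were at or under the floor of 3 counts, which was 0.0918 to 0.142 CPM over the libraries. The 7 markers together summed to 57.2 to 65.7 CPM in Ndrg3ctrl and 64.5 to 84.8 CPM in Ndrg3TKO. Most of that sum came from Klrd1 (28.4 to 47.3 CPM over all libraries) and Cd160 (24.2 to 41.4 CPM). The NK marker Ncr1 was at 0 in all 8 libraries, and the part of such cells in the Il2rb value was not tested.

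Il2ra encodes the alpha chain that raises the affinity of the IL-2 receptor and is a marker of activated and regulatory T cells. Its 71 to 280 counts per library gave 3.92, 5.65, 6.06 and 2.60 CPM in Ndrg3ctrl and 7.03, 6.75, 9.35 and 4.76 CPM in Ndrg3TKO. Ndrg3TKO replicates 1 to 3 lay above every control, and Ndrg3TKO replicate 4 lay below 2 of the controls. The log2 fold change was 0.62, the largest in size among the tested chains, with a 95% interval of 0.04 to 1.19 and an edgeR adjusted p of 0.422. Leaving out 1 library at a time gave log2 fold changes of 0.42 to 0.80 with adjusted p of 0.287 to 0.673. Whether Il2ra was called did depend on entering the shared replicate numbers as a block, which is given with the processing settings below. Of 5 markers of regulatory T cells, 0 were called by edgeR or DESeq2, beside 1.15% and 1.93% of the genes each tested. An unadjusted p under 0.05 was found for 2, beside 10.9% of all tested genes in edgeR. Foxp3, which defines these cells and was singled out after its values were seen, held 3.45 ± 0.731 CPM in Ndrg3ctrl and 4.97 ± 1.21 CPM in Ndrg3TKO (n = 4 each, edgeR adjusted p = 0.293). The log2 fold changes of the other members were 0.22 for Ikzf2, -0.01 for Tnfrsf4, -0.04 for Tnfrsf18 and -0.09 for Ctla4, and none of them passed the test. The 5 markers summed to 534 to 628 CPM in Ndrg3ctrl and 593 to 742 CPM in Ndrg3TKO, most of it from Ikzf2, and their part in the Il2ra value was not tested.

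Il15ra encodes the alpha chain that binds IL-15 and presents it to cells bearing Il2rb and the common chain. It lies next to Il2ra (chr2:11642807-11693193, plus strand), at chr2:11705290-11734317 on the same strand, with 12096 bases and no protein-coding gene between them. Il15ra values were 4.93, 5.21, 7.04 and 7.79 CPM in Ndrg3ctrl and 4.34, 5.05, 3.81 and 5.86 CPM in Ndrg3TKO. Ndrg3ctrl replicates 3 and 4 lay above all Ndrg3TKO libraries, while replicates 1 and 2 lay within their range. The log2 fold change was -0.39 (95% interval -0.76 to -0.02, edgeR adjusted p = 0.437). The fitted differences of the 2 neighbours thus had opposite signs, and neither passed the test.

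Il7r (chr15:9505788-9530176, minus strand) encodes the IL-7 binding chain, which mature CD8SP thymocytes carry again after its loss in double-positive cells. Its values were 203, 195, 183 and 194 CPM in Ndrg3ctrl and 161, 189, 178 and 189 CPM in Ndrg3TKO. Ndrg3TKO replicate 1 was the lowest library and Ndrg3ctrl replicate 1 the highest, with an overlap between 183 and 189 CPM. The log2 fold change was -0.11 (95% interval -0.24 to 0.01, edgeR adjusted p = 0.516), or -0.14 to -0.07 with 1 library left out at a time. The RefSeq promoter window of Il7r (250 bases before to 50 after the start, GRCm38.p6) was the only one of 8 windows, from 7 matched chains, that held the STAT-type motif TTCNNNGAA, searched on both strands, which 8.30% of 32851 windows of that length held. The match is shown in capitals with its neighbouring bases because Stat5 acts downstream of this receptor. It lies at chr15:9530002-9530026 on the minus strand, 142 bases before the RefSeq start but inside the gene as GENCODE draws it:
Il7r: tcaggagcTTCAGGGAAtaccaaga
The match is a description of the letters and not of binding.

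Il4ra (chr7:125552120-125579474, plus strand) encodes the IL-4 binding chain, which also pairs with Il13ra1 in other cells. Its values were 250, 269, 236 and 225 CPM in Ndrg3ctrl and 217, 269, 271 and 211 CPM in Ndrg3TKO. The Ndrg3TKO libraries split into 2 high and 2 low values that enclosed the controls. The log2 fold change was -0.02 (95% interval -0.21 to 0.18, edgeR adjusted p = 0.968), and its sign turned when a trend with GC content was removed and without Ndrg3ctrl replicate 2, Ndrg3TKO replicate 1 or Ndrg3TKO replicate 4.

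Il21r (chr7:125603429-125633570, plus strand), the IL-21 binding chain, is the next protein-coding gene after Il4ra on the same strand, 23954 bases away. Its values were 305, 312, 312 and 309 CPM in Ndrg3ctrl and 300, 305, 325 and 296 CPM in Ndrg3TKO. It was the chain with the narrowest interval, a log2 fold change of -0.02 (95% interval -0.12 to 0.09, edgeR adjusted p = 0.937), whose sign also turned with the GC trend removed and without Ndrg3TKO replicate 4. Its promoter window was the only one of the 8 to hold the FOXO-type motif GTAAACA, searched on both strands, which 3.65% of all windows held. The match, in capitals and on the opposite strand, is shown because Foxo1 is among the regulators counted further on, and it lies at chr7:125603383-125603405 on the plus strand, 38 bases before the RefSeq start:
Il21r: cggggcacTGTTTACcacatccc
As for Il7r, it says nothing about whether the factor binds there.

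Il9r (chr11:32187541-32200279, minus strand), the IL-9 binding chain, held 2, 1, 1 and 2 counts in Ndrg3ctrl and 3, 6, 3 and 6 counts in Ndrg3TKO. The 18 counts against 6 gave a ratio of 2.58 (95% exact binomial interval 0.981 to 7.94, counting error only). Every control was under the floor of 3 counts, 2 of the Ndrg3TKO libraries were at it, and in the edgeR fit without a filter on low counts the adjusted p was 0.700.

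**Figure D3:**
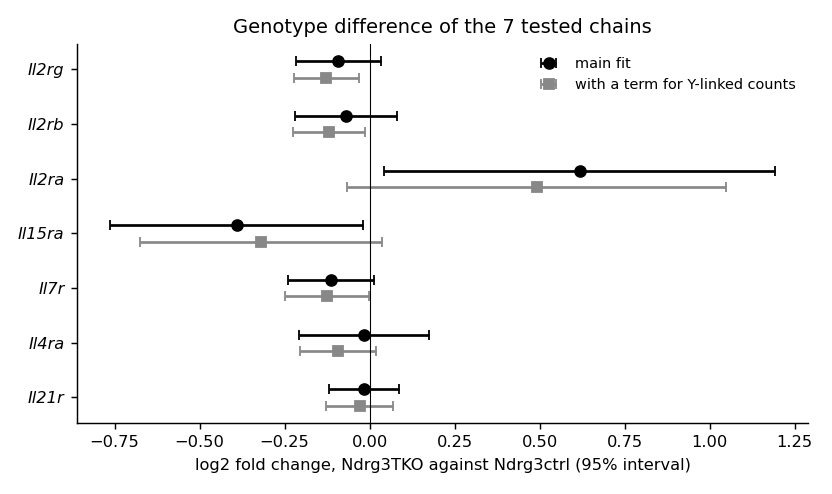
Log2 fold change of Ndrg3TKO against Ndrg3ctrl with its 95% interval for the 7 tested chains, in the fit by genotype alone (black circles) and in the fit with a term for Y-linked counts (grey squares). Most intervals include 0, the estimate for Il2ra lies furthest above 0 at 0.62, and none of the 7 passed adjustment over all genes in either fit.

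Apart from genotype, the libraries differed in Y-linked counts, and Il4ra differed with them. Y-linked counts were present in 1 of 4 Ndrg3ctrl and 2 of 4 Ndrg3TKO libraries, so they were entered as a second term of the edgeR fit. In that fit the genotype term called 0 of 7 chains, beside 2.99% of all tested genes, and 3 of 7 chains, Il2rb, Il2rg and Il7r, had an unadjusted p under 0.05, beside 18.2% of all tested genes. Their log2 fold changes were -0.12, -0.13 and -0.13 with edgeR adjusted p of 0.212, 0.144 and 0.265. Within the 5 libraries without Y-linked counts the log2 difference of the genotype means was 0.55 for Il2ra and -0.36 for Il15ra, and within the 3 libraries with them it was 0.49 and -0.25, values too few for a test.

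The term for Y-linked counts, read after the values by library had been seen, was called for 1 of 7 chains, beside 0.574% of all tested genes. Il4ra held 269, 269 and 271 CPM in the 3 libraries with Y-linked counts and 211 to 250 CPM in the 5 without. The 3 libraries were above all 5 others, as was so for 3.72% of all tested genes. The difference was 0.27 on the log2 scale (SE 0.05, edgeR adjusted p = 0.0410). Within each genotype it was 0.18 among Ndrg3ctrl and 0.34 among Ndrg3TKO libraries. All 3 libraries with Y-linked counts fall in the same set of numbered columns of the counts table, which besides them holds only Ndrg3ctrl replicate 3. A difference by Y-linked counts and a difference by that set can therefore not be fully told apart.

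This call was lost under more settings than kept it, although its direction was held. It was kept with another scaling of library size (RLE, edgeR adjusted p = 0.0433) and with low counts kept in (2.14e-04). It was also kept without Ndrg3ctrl replicate 1 or 4 (0.0113 and 0.0462) and without Ndrg3TKO replicate 3 (0.0273). The adjusted p for Il4ra was 0.0759 after the GC content trend of each library was removed, and it was 0.363 without Ndrg3ctrl replicate 2, 0.0719 without Ndrg3ctrl replicate 3, and 0.0766, 0.194 and 0.0880 without Ndrg3TKO replicates 1, 2 and 4. GC content was set against each library's log2 CPM, taken as deviations from the mean of its own genotype. Across genes these deviations correlated positively with GC content in the 3 libraries with Y-linked counts (Spearman's rho of 0.204, 0.172 and 0.0640). They correlated negatively in the other 5. Deviations cancel out within a genotype, so these signs depend on each other. The Il4ra transcript has a GC content of 55.8%, the highest of the chains. Il21r, at 54.8%, had a difference of 0.05 with an edgeR adjusted p of 0.575. The Il4ra difference was 0.23 with the GC content trend removed and 0.27 without that step. Whether GC content has a part in the Il4ra difference was not tested further. Il2rb and Il2rg had differences of 0.20 and 0.14 in the same direction with adjusted p of 0.0686 and 0.114. These groups of 3 and 5 libraries are not groups of the study. The Il4ra call was also lost with the shared replicate numbers as a block, as given with the processing settings below.

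**Figure D4:**
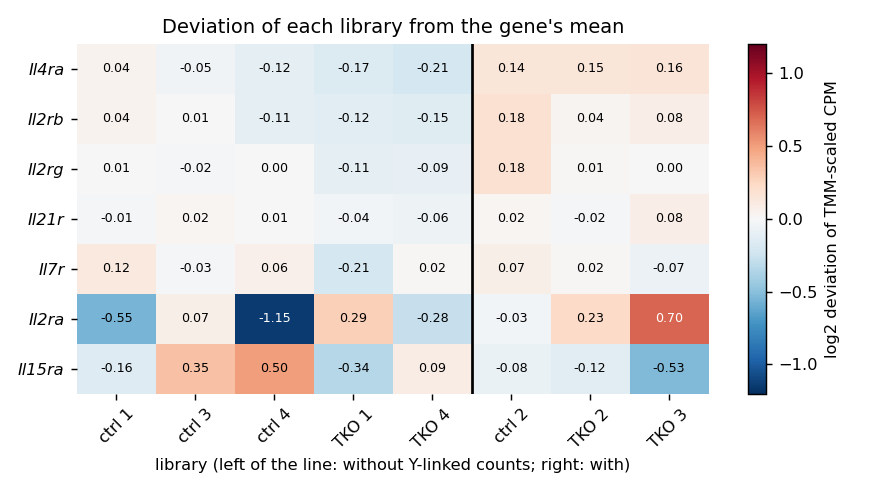
Log2 deviation of each library's TMM-scaled CPM from the gene's mean over 8 libraries, with the 5 libraries without Y-linked counts left of the line and the 3 with them right of it. Il4ra is above its mean in all 3 libraries on the right, and the widest spread between libraries is in Il2ra and Il15ra, the chains with the lowest counts of those tested.

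The pathway around the receptors was followed in 5 lists. The 6 cytokine ligands were not tested, since none passed the filter, and their counts together came to 0.0671 to 0.568 CPM per library. Il2, the highest on average, held 0 to 14 counts. Of 5 genes of partner chains and ligands outside the common gamma family, 1 was tested. This was Crlf2, the TSLP receptor chain that pairs with Il7r, at 41.6 ± 2.21 CPM in Ndrg3ctrl and 41.2 ± 1.08 CPM in Ndrg3TKO, with a log2 fold change of -0.01 whose sign turned under several settings.

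Of 13 signalling genes, all tested, 0 were called by edgeR in either direction, beside 1.15% of all tested genes. An unadjusted p under 0.05 was found for 2, beside 10.9% of all tested genes, and the median log2 fold change was -0.04. The 3 most abundant were Pik3cd, a catalytic subunit of PI3K (-0.04, adjusted p = 0.848), the kinase Jak1 (-0.07, adjusted p = 0.753) and the transcription factor Stat5b (0.06, adjusted p = 0.748). Stat5a, named after its values were seen, held 159, 174, 151 and 157 CPM in Ndrg3ctrl and 138, 150, 144 and 136 CPM in Ndrg3TKO. These groups did not overlap, as was so for 7.04% of all tested genes, and the log2 fold change was -0.17 (edgeR adjusted p = 0.208). With the term for Y-linked counts the edgeR adjusted p was 0.0232, in a fit that called 2.99% of all tested genes. DESeq2 called 0 of the 13 as well, beside 1.93% of its genes.

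Among 15 target and feedback genes, 14 were tested and 3 were called, beside 1.15% of all tested genes, with a median log2 fold change of -0.05. Socs3, a feedback inhibitor of JAK-STAT signalling, was higher in Ndrg3TKO, with 55.1, 49.6, 53.8 and 58.4 CPM against 37.2, 31.2, 32.7 and 40.2 CPM in Ndrg3ctrl, a log2 fold change of 0.62 (edgeR adjusted p = 9.59e-04). Gata3, a transcription factor of T cell development and a target of IL-4 signalling, was also higher, with 89.9, 80.5, 82.2 and 76.2 CPM against 62.2, 59.6, 56.8 and 55.9 CPM, a log2 fold change of 0.49 (adjusted p = 5.25e-04). Eomes was lower, with 5.20, 7.38, 6.98 and 5.89 CPM against 14.3, 15.8, 12.6 and 18.2 CPM, a log2 fold change of -1.26 (adjusted p = 1.70e-04). For each of these 3 genes the 2 groups did not overlap, as was so for 7.04% of all tested genes. The 3 were picked by the test on the same libraries, so their separation is no further support.

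The most abundant genes of that list had smaller differences that did not pass the test. They were Ccnd2, a D-type cyclin (-0.09, edgeR adjusted p = 0.755), and the survival factors Mcl1 (-0.09, adjusted p = 0.616) and Bcl2 (0.05, adjusted p = 0.823). Of 10 known regulators of receptor genes, all tested, 0 were called by edgeR or DESeq2, beside 1.15% and 1.93% of the genes each tested. An unadjusted p under 0.05 was found for 3, beside the same 10.9% of all tested genes, and the median log2 fold change was 0.0013. Foxo1, which is known to drive Il7r, had 0.15 (adjusted p = 0.342), Klf2, a target of Foxo1 in naïve T cells, had -0.26 (adjusted p = 0.130) and Ets1 had 0.05 (adjusted p = 0.883). With the term for Y-linked counts 6 genes of the 5 lists were called, in a fit that called 2.99% of all tested genes against 1.15% without the term. They were the same 3 and Klf2, Myc and Stat5a, and each of these last 3 had a negative log2 fold change.

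**Figure D5:**
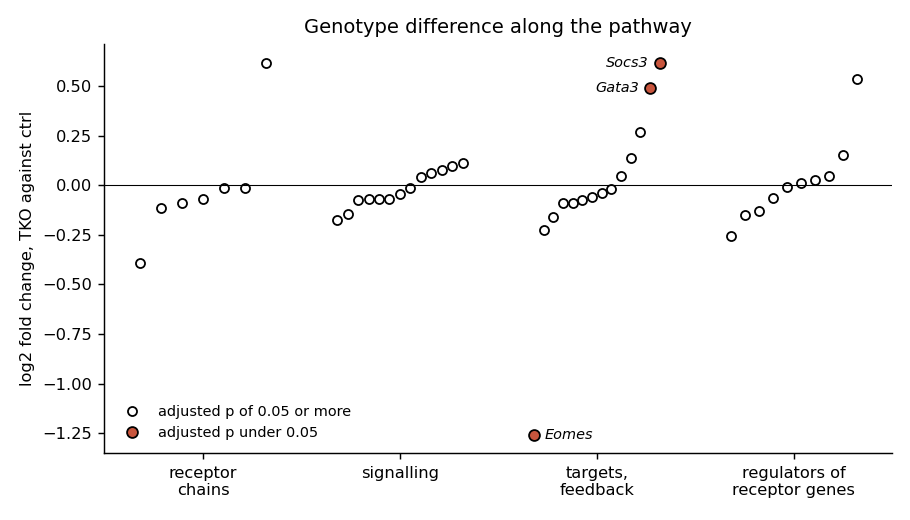
Log2 fold change of Ndrg3TKO against Ndrg3ctrl for the tested genes of 4 lists, with 1 point per gene sorted by value within its list. Filled points have an adjusted p under 0.05, which is so for Socs3 (0.62), Gata3 (0.49) and Eomes (-1.26) and for none of the receptor chains, signalling genes or regulators.

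The genes whose log2 CPM followed each chain most closely over the 8 libraries were taken from the other 14632 tested genes. These correlations are a description over 8 libraries, and the 2 genes of a pair share each library's depth and GC trend. For Il2rg they were Wars, Sash3 and Hsp90ab1 (Pearson's r of 0.993, 0.991 and 0.982), and for Il2rb they were Gstk1, Chpf and Apmap (0.982, 0.971 and 0.970). Il4ra was followed by Mob3a at 0.993 and by Nmral1 and Atf6b at 0.955 and 0.954. For Il2ra the nearest were Myo1e, Wdr35 and Cpeb2 (0.988, 0.977 and 0.965), and for Il15ra they were Tmem234, AU020206 and Wdhd1 (0.979, 0.970 and 0.968).

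For the remaining chains the nearest gene had a lower r than for the others. Il7r had C8g, Cdkn2aip and Pard6a (0.957, 0.948 and 0.936) and Il21r had Urb1, Cep68 and Dscam (0.969, 0.953 and 0.937). None of these 21 genes was another receptor chain, and none was called between the genotypes, beside 1.15% of all tested genes. They were chosen for following chains that were not called, so few calls could arise among them.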

How the data were processed

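Per the labels and the study's methods, the authors prepared libraries from total RNA after ribosomal RNA removal, ran the snakePipes pipeline, with cutadapt for trimming, STAR for alignment (GRCm38.p4, GENCODE M9) and featureCounts for counting; the versions of these 3 tools and the strand setting are not given in the sources used here. The deposited values are raw counts per gene. Symbols, positions and exon lengths came from GENCODE M21 (GRCm38) by Ensembl identifier, and 98.7% of the genes matched.

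Genes were filtered with filterByExpr, scaled by TMM and tested with edgeR 4.0.16 (glmQLFit, robust, and glmQLFTest) in R 4.3.3, with Benjamini-Hochberg adjustment over 14633 genes and a threshold of 0.05. DESeq2 1.42.0 was an alternative. Exact permutation tests enumerated the 70 splits of 8 libraries (SciPy 1.17.1). TPM are counts per exon length, scaled to the same sum in each library. The floor of 3 counts covers counting error only. Replicates of a group differed by chi-square of 9.98 to 35.2 per gene, so none was a duplicate. The fits were tested on simulated data.

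The chains and lists were chosen with earlier results of these data known. Genes were named by rule: the chains, Ndrg3, the called and the 3 most abundant genes of each pathway list, called markers and the 3 genes most like each tested chain; exceptions are stated. The Y-linked term as a result and the GC offset were added after the data were seen. In the marker lists edgeR called 0 of 8 tested CD8 T cell, 0 of 2 CD4 T cell, 0 of 5 immature thymocyte, 0 of 2 gamma delta T cell and 0 of 3 myeloid and epithelial markers (unadjusted p under 0.05 for 2, 0, 1, 1 and 1, and DESeq2 calls 1, 0, 1, 0 and 0), and 2 of 6 memory CD8 markers, Cxcr3 and Ccl5, both lower in Ndrg3TKO (unadjusted p under 0.05 for 4, with Ly6c2 lower and Nkg7 higher, and 3 DESeq2 calls, with Ly6c2). No B cell marker passed the filter. Over all tested genes, edgeR called 1.15%, an unadjusted p under 0.05 was found for 10.9%, and DESeq2 called 1.93% of its genes.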

Additional observations from a re-analysis of the deposited data

Results flagged for a closer look

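In Ndrg3ctrl, replicate 2 stood apart for Il2rg, at 404 CPM against 351 to 359 CPM in the other 3 libraries of the group. Its gap to the nearest library was 0.854 of the group's range. Without that library the log2 fold change of Il2rg was -0.05 (edgeR adjusted p = 0.890). Replicate 4 of the same group stood apart in the share of mitochondrial counts, at 0.636% against 0.803% to 0.820% in the others. In all, 2 of 20 group values checked were flagged, and chance flags about 1 in 20.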

How the results depend on the processing

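The count of called genes was 168, and it was 309 with DESeq2, 274 with low counts kept in, 437 with the Y-linked term, and 90 to 158 when 1 library was left out. No receptor chain was called under any of these. Replicate numbers are shared by the 2 groups, but same-numbered libraries deviated together in only 3 of 4 pairs (r = 0.181, 0.415, -0.0550 and 0.301). The mean r was 0.211 for same-numbered pairs and -0.0687 for the others, and 3 of 4 Ndrg3TKO libraries correlated best with their own number. The numeric column headers run in sets that each hold both genotypes (replicate 1, replicates 2 and 3, and replicate 4). What those header numbers mean is not stated. In the pair with a negative r, replicate 3, the Ndrg3TKO library held Y-linked counts at over 1 CPM and the Ndrg3ctrl library did not. These correlations can therefore not decide whether the libraries were paired. The numbers were not taken to pair the libraries, so the main fit has no term for them. With the replicate block the called genes were 800, or 5.47% of those tested (791 with the GC content offset too), the called chains 1 (1) and the called pathway genes 8 (9). That chain was Il2ra, at 0.64 (adjusted p = 0.00541), or 0.63 (0.00721) with the offset. The Y-linked term alone gave 6 pathway genes, in a fit that called 2.99% of all tested genes, and leaving out libraries gave 3 each time. The fold change of Il4ra turned to 0.0048 and that of Il21r to 0.0044 with the GC content offset, and Il21r to 0.0039 with the block too. Leaving out 1 library gave -0.0757 to 0.0446 for Il4ra, -0.0455 to 0.0012 for Il21r and -0.0378 to 0.0196 for Crlf2, which was 0.0178 with the GC content offset, without and with the block. The Il4ra difference by Y-linked counts was 0.30 (adjusted p = 0.195) with the replicate block, and 0.25 to 0.34 without 1 library. Levels given as TMM-scaled CPM per kilobase instead of TPM were 149 for Il2rg, 92.7 for Il21r, 75.6 for Il2rb, 40.5 for Il4ra, 40.0 for Il7r, 1.24 for Il15ra, 1.01 for Il2ra and 0.0201 for Il9r, in the same order. Except where given, the cause of a change was not tested. Il9r, with 1 to 6 counts per library, could not be compared at this depth.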
